A study of Mus musculus with 3 samples.

Results

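Accessible chromatin was followed along 10 very long genes of neurons: Csmd1, Csmd2, Csmd3, Macrod2, Magi2, Dpp6, Dpp10, Ptprd, Auts2 and Lrp1b. These 10, among the 21627 protein-coding genes of the annotation used, were listed by name, with earlier results of these data known, and no measured value enters the rule. The data are 3 peak lists, 1 library for each of sciATACv1, sciATACv2 and sciATACv3 (here v1, v2 and v3), which are versions of single-cell combinatorial indexing ATAC-seq finished on nanowell chips, applied to whole brain of C57BL6 mice. In ATAC-seq the transposase Tn5 cuts into open chromatin, and a peak is a stretch of the genome where such cuts pile up. All 3 groups share strain, tissue and nuclei isolation, and the sources used here do not say what sets the versions apart or give the animals' sex, age and number. Values that come in threes are in the order v1, v2, v3 throughout.

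The proteins of these genes act mostly at the neuronal surface and the synapse. Their gene bodies consist almost wholly of introns, which in the brain can hold enhancers and internal promoters, and several of them lie in regions known as common fragile sites. Transcription of such a gene takes a polymerase many hours, and long genes are a feature of the neuronal transcriptome.

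The lists hold 622754, 850991 and 512023 peaks, with no height, read count or barcode, so sequencing depth is unknown. The number of peaks per kb therefore follows the length of each list, and genes are compared with other genes of the same library, or between libraries as shares of all peaks. With 1 library per version there is no spread between replicates and no test. Intervals are 95% intervals that cover counting error only. In lists pooled over cells, fewer cells of a type and less open chromatin per cell cannot be told apart. As a check of the tissue, all 16 marker genes of brain cell types, among them Snap25 and Mbp, showed a peak no more than 1 kb from an end of the gene in each library. Of 6 liver and epidermis genes 2, 3 and 3 had one, against 81.0%, 84.8% and 80.6% of all protein-coding genes.

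Annotated transcription starts are shown first, because they divide the bodies of several of these genes. The RefSeq promoter table (GRCm38.p6, the build mm10) held 8 promoters of 4 of the genes, Dpp6, Magi2, Dpp10 and Macrod2; the other 6 are named only, and their direction of transcription is not used below. Dpp6 has 3 annotated starts and Magi2 has 2. The 250 bases before each of them are printed 5′ to 3′ on the plus strand, with CG dinucleotides in capitals, since these promoters range from CG-rich to CG-poor.
Dpp6 start 1, chr5:26817107-26817356: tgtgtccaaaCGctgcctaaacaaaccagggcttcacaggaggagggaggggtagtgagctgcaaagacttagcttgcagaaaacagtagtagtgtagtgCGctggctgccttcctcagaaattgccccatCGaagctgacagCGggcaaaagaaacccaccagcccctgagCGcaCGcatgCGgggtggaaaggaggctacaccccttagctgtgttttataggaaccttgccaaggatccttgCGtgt
Dpp6 start 2, chr5:27048949-27049198: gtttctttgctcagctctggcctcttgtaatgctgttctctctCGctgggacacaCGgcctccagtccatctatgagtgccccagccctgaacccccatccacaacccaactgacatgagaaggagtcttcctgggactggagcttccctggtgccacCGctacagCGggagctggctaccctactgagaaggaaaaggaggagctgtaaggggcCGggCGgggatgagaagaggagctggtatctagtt
Dpp6 start 3, chr5:27261685-27261934: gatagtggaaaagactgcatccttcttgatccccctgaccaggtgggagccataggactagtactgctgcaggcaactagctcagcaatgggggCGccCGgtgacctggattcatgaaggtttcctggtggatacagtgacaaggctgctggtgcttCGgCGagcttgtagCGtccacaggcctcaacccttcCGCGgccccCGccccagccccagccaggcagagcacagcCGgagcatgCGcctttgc
Magi2 start 1, chr5:19226796-19227045: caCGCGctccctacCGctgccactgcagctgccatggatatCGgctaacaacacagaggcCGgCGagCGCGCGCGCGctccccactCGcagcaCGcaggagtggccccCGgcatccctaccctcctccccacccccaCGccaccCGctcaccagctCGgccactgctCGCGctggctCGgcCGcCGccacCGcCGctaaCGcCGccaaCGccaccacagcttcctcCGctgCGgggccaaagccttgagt
Magi2 start 2, chr5:19907268-19907517: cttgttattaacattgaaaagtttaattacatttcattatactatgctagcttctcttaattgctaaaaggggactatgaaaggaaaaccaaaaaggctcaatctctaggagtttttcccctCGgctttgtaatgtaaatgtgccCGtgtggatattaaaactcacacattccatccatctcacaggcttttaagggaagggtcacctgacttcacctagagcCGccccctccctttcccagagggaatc

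Every one of these starts carried a peak in all 3 libraries, whether rich or poor in CG dinucleotides. The 250 bases before the first Magi2 start hold 29 CG dinucleotides, as many as or more than which only 6.82% of the 32619 promoters of the table hold. Those before the second hold 3. Over that first start lay peaks of 2702, 2694 and 2526 bp, and over the second peaks of 979, 1306 and 1031 bp. The 3 Dpp6 starts, with 8, 6 and 10 CG dinucleotides, had peaks of 1616, 2034 and 1481 bp, of 1818, 1823 and 2567 bp, and of 1611, 1042 and 2176 bp. The Dpp10 start inside the gene, with 14 CG dinucleotides before it, lay under peaks of 2998, 1471 and 3382 bp. Both Macrod2 starts, which lie side by side and hold 30 and 29 CG dinucleotides, lay under 1 peak of 1588, 1399 and 1558 bp. All these peaks exceeded the median width of the peaks in the same gene windows, which was 500 to 751 bp in these 4 genes. Of all promoters in the table, 60.2% had a peak in all 3 libraries.

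Some short promoter motifs were searched in the same 250 bases on both strands. The GC box GGGCGG occurred 3 times before each Macrod2 start, 2 times before the Dpp10 start, and once before the second Magi2 start and the second and the third Dpp6 start, against at least once in 33.0% of promoters. TATAAA occurred only before the first Dpp6 start (12.4% of promoters), and CCAAT only before the Macrod2 starts (34.0%). TGACG occurred before none of the 8 (17.9% of promoters). A match is a description of the letters and no evidence of binding.

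Over the whole gene, 9, 7 and 8 of the 10 windows held more peaks per kb than the median of the other protein-coding genes with spans of at least 500 kb, of which there were 226 with the 10 included. A window is the gene span plus 5 kb on each side. The medians over the 10 genes were 0.48, 0.56 and 0.41 peaks per kb. For the other long genes they were 0.41, 0.52 and 0.32, and for all protein-coding genes 0.30, 0.43 and 0.27. Peaks covered a median of 37.3%, 46.2% and 40.1% of these 10 windows, against 29.5%, 40.2% and 30.1% of the windows of the other long genes. Together the 10 windows held 7144, 8322 and 5951 peaks, which is 1.15%, 0.978% and 1.16% of each list.

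**Figure D1:**
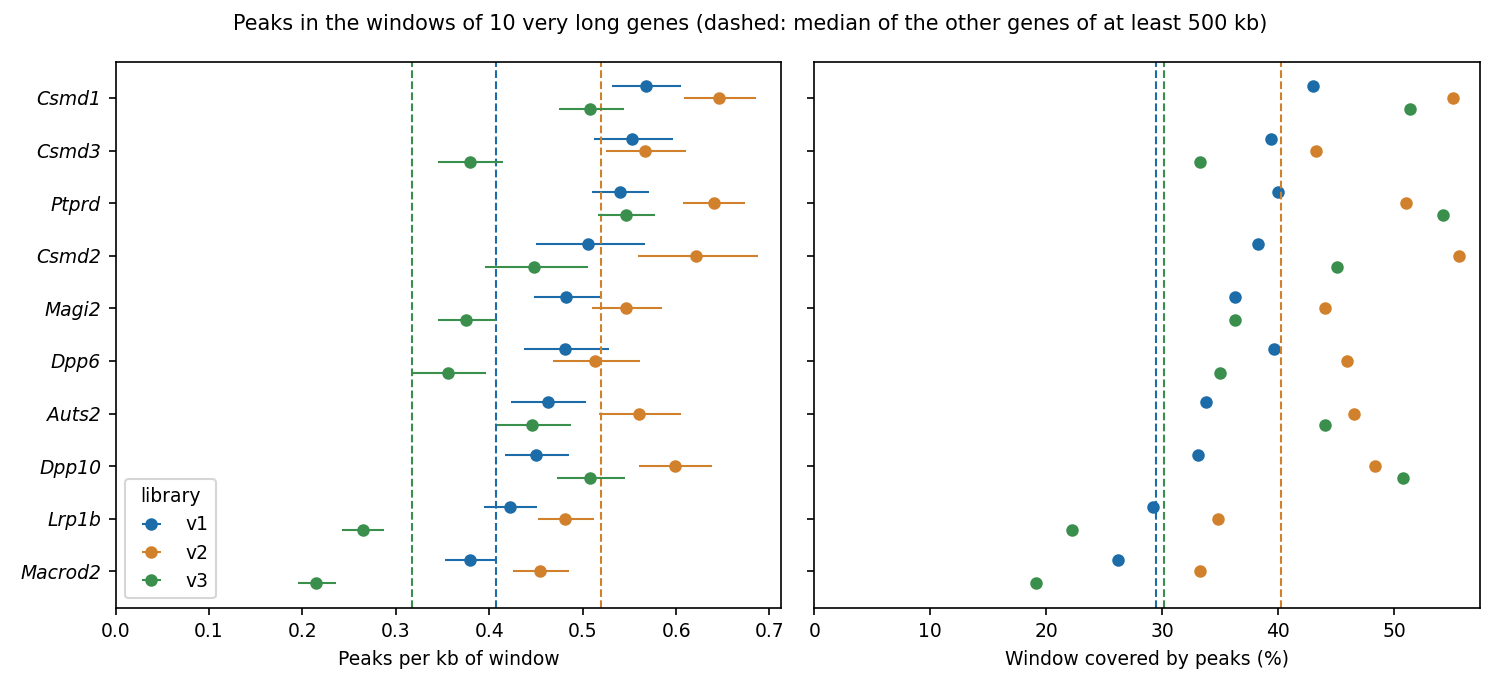
Peaks per kb of window (left, bars are 95% counting intervals) and percentage of the window under peaks (right) for each gene in v1, v2 and v3, with dashed lines at the medians of the other genes of at least 500 kb. Macrod2 and Lrp1b stand below all 3 dashed lines on the right, and on the left Macrod2 alone stands below all 3.

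The order of the genes was much the same at its ends and loose in the middle. Macrod2 was lowest and Lrp1b next in every library, and Csmd1 was first in v1 and v2 and the second in v3, after Ptprd. In v1 and v2 all 9 pairs of neighbours in the order had overlapping counting intervals. In v3 the intervals of 7 pairs overlapped, while Dpp6 stood apart from Lrp1b and Lrp1b from Macrod2. The highest gene had 1.5, 1.42 and 2.54 times the peaks per kb of the lowest.

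The CSMD genes encode large membrane proteins built of CUB and sushi domains, and CSMD1 is known as a regulator of complement. Csmd1 (chromosome 8, 15892538 to 17535385) held 938, 1068 and 840 peaks, or 0.57, 0.65 and 0.51 per kb. Among the 226 genes of at least 500 kb it ranked 20, 18 and 16 by peaks per kb. Its peaks were spread fairly evenly, with 75 to 100, 98 to 114 and 67 to 97 in bins of 10% of the span. The lowest-coordinate bin held the fewest in each library. It had 8.03% (6.37 to 9.96), 9.21% (7.54 to 11.1) and 8.03% (6.28 to 10.1) of those in the span, below an even 10% beyond the interval in v1 alone. Csmd2 (chromosome 4, 127986505 to 128567660) is the shortest of the 10 and held 299, 367 and 265 peaks, or 0.51, 0.62 and 0.45 per kb. In v2 peaks covered 55.6% of its window, slightly more than the 55.1% of Csmd1.

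Csmd3 (chromosome 15, 47580638 to 48792558) was close to Csmd1 in v1 and nearer the middle of the long genes in the other lists. It held 676, 692 and 463 peaks, or 0.55, 0.57 and 0.38 per kb, and ranked 25, 88 and 88. In v3 its peaks were unevenly placed: the lower-coordinate 50% of the span held 38.9% of them (34.4 to 43.5), against 47.7% (43.9 to 51.5) in v1 and 48.0% (44.2 to 51.8) in v2. The longest stretch without a peak, 27.4 kb in v3 against 8.73 kb in v1 and 8.12 kb in v2, lay at 47665090 to 47692523 in that part of the gene.

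Dpp6 and Dpp10 encode membrane proteins related to dipeptidyl peptidases that lack peptidase activity and serve as auxiliary subunits of Kv4 potassium channels. Dpp6 (chromosome 5, 26817357 to 27727500, plus strand) held 443, 472 and 327 peaks, or 0.48, 0.51 and 0.36 per kb. The first 10% of its span, counted from the start of transcription, held 18, 12 and 6 peaks, which is 4.11% (2.45 to 6.42), 2.56% (1.33 to 4.44) and 1.86% (0.685 to 4.0) of those in the span. An even spread would put 10% of the peaks there. The other 175 genes of at least 500 kb with a known strand had medians of 9.70%, 9.99% and 10.5%. The longest stretch without a peak in any of the 10 genes also lay here, 56.6 kb in v3, from 26818600 to 26875170. It begins just past the peaks at the first start. Such stretches were not particular to Dpp6. In v3, 42 of the other 216 genes of at least 500 kb also had one of 50 kb or more. The median longest v3 stretch was 22.2 kb in those genes and 19.4 kb in the 10. With peaks wider than 500 bp alone, the longest v3 stretch of the 10 genes lay in Lrp1b (71.4 kb), and that of Dpp6 was 57.1 kb. In v1 and v2 the longest stretches of Dpp6 were 15.1 and 17.5 kb, again close to that start.

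Dpp10 (chromosome 1, 123332138 to 124845815, minus strand) held 686, 912 and 774 peaks, or 0.45, 0.60 and 0.51 per kb. Besides Ptprd it was the only gene of the 10 with more peaks in the short v3 list than in the longer v1 list. Peaks covered 33.1%, 48.3% and 50.8% of its window. In v1 the upper-coordinate 50% of the span, its 5′ side, held 40.0% (36.3 to 43.8) of its peaks. In v2 this part held 49.1% (45.8 to 52.4) and in v3 47.9% (44.3 to 51.5). The only annotated Dpp10 start at hand, at 124045559, lies just past this part, at 52.9% of the span from the 5′ end. Of the bins of 10% of the Dpp10 span, the fifth from the 5′ end held the fewest peaks in all 3 libraries, with 37, 74 and 56.

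Ptprd, which encodes a receptor tyrosine phosphatase that organises presynaptic terminals, had the most peaks of any protein-coding gene in each of the 3 libraries. Its window (span at chromosome 4, 75941237 to 78211742) held 1231, 1460 and 1245 peaks, or 0.54, 0.64 and 0.55 per kb. By peaks per kb it ranked 36, 22 and 7 among the 226 long genes, so that its first place in number rests in part on its length. The bins of 10% of its span held 102 to 156, 137 to 155 and 106 to 135 peaks, with the most at the lower-coordinate end in each library. That bin had 12.7% (10.9 to 14.7), 10.6% (9.10 to 12.3) and 10.9% (9.19 to 12.7) of those in the span, so the intervals of v2 and v3 held an even 10%. At its upper-coordinate end lay peaks of 2931, 3654 and 2456 bp.

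Magi2 encodes S-SCAM, a scaffold protein of synapses, and lies on chromosome 5, 19219387 to 20704792, on the plus strand. It held 721, 817 and 561 peaks, or 0.48, 0.55 and 0.38 per kb. The 50% of the span nearer the start of transcription held 38.6% (35.0 to 42.3) of its peaks in v1, 38.9% (35.5 to 42.3) in v2 and 33.2% (29.3 to 37.3) in v3. The sixth bin of 10% held the most in each library, with 102, 106 and 88 peaks. In v3 Magi2 was the only gene of the 10 with no peak within 1 kb of either end of the span. Its first annotated start lies inside the span and carried the peaks given above.

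Auts2 encodes a nuclear protein that works with a Polycomb complex in the transcription of neuronal genes. It lies on chromosome 5, 131437333 to 132543220, and held 516, 625 and 498 peaks, or 0.46, 0.56 and 0.45 per kb. In v1 the lowest-coordinate 10% of Auts2 held 73 peaks, 14.2% (11.3 to 17.5) of those in the span. In v2 and v3 it held 62 and 48, or 9.98% and 9.72%. Both ends of the span carried wide peaks, of 2784, 1202 and 2416 bp at the lower end and 2968, 3144 and 1343 bp at the upper end.

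Macrod2, whose product removes mono-ADP-ribose from proteins, was the gene with the fewest peaks per kb in every library. Its window (span at chromosome 2, 140395303 to 142392966, plus strand) held 761, 913 and 431 peaks, or 0.38, 0.45 and 0.21 per kb. Peaks covered 26.2%, 33.3% and 19.1% of it. By peaks per kb it ranked 135, 156 and 154 of 226. Macrod2 differed from Dpp6 in the place of its peaks. The first 10% after its start had a share whose interval lay above an even 10% in v2 and v3, and around it in v1. It held 90, 118 and 75 peaks, or 11.8% (9.62 to 14.3), 12.9% (10.8 to 15.3) and 17.4% (13.9 to 21.3). The seventh bin held 62, 56 and 25. In v3, the shortest list, Macrod2 had 44 stretches of at least 10 kb without a peak, against 8 in v1 and 5 in v2. Lrp1b was similar, with 37 against 9 and 3, and the 10 genes together had 110 against 41 and 13. Not all genes went this way, as Dpp10 had 0 in v3 and 10 in v1.

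Lrp1b encodes an endocytic receptor of the LDL receptor family and lies on chromosome 2, 40595290 to 42653598. It held 873, 996 and 547 peaks, or 0.42, 0.48 and 0.26 per kb. Its upper-coordinate end carried peaks of 1737, 1605 and 2603 bp, and no peak lay within 1 kb of the lower end in any library. From the lowest-coordinate to the highest-coordinate bin of 10%, the number of peaks went from 54 to 105 in v1, from 72 to 117 in v2 and from 22 to 99 in v3. In v3 the first 6 bins held 22 to 46 peaks each and the last 4 held 78 to 99. The lower-coordinate 50% of the span thus held 29.3% (25.5 to 33.3) of the v3 peaks, against 42.7% (39.4 to 46.1) in v1 and 44.7% (41.5 to 47.8) in v2.

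**Figure D2:**
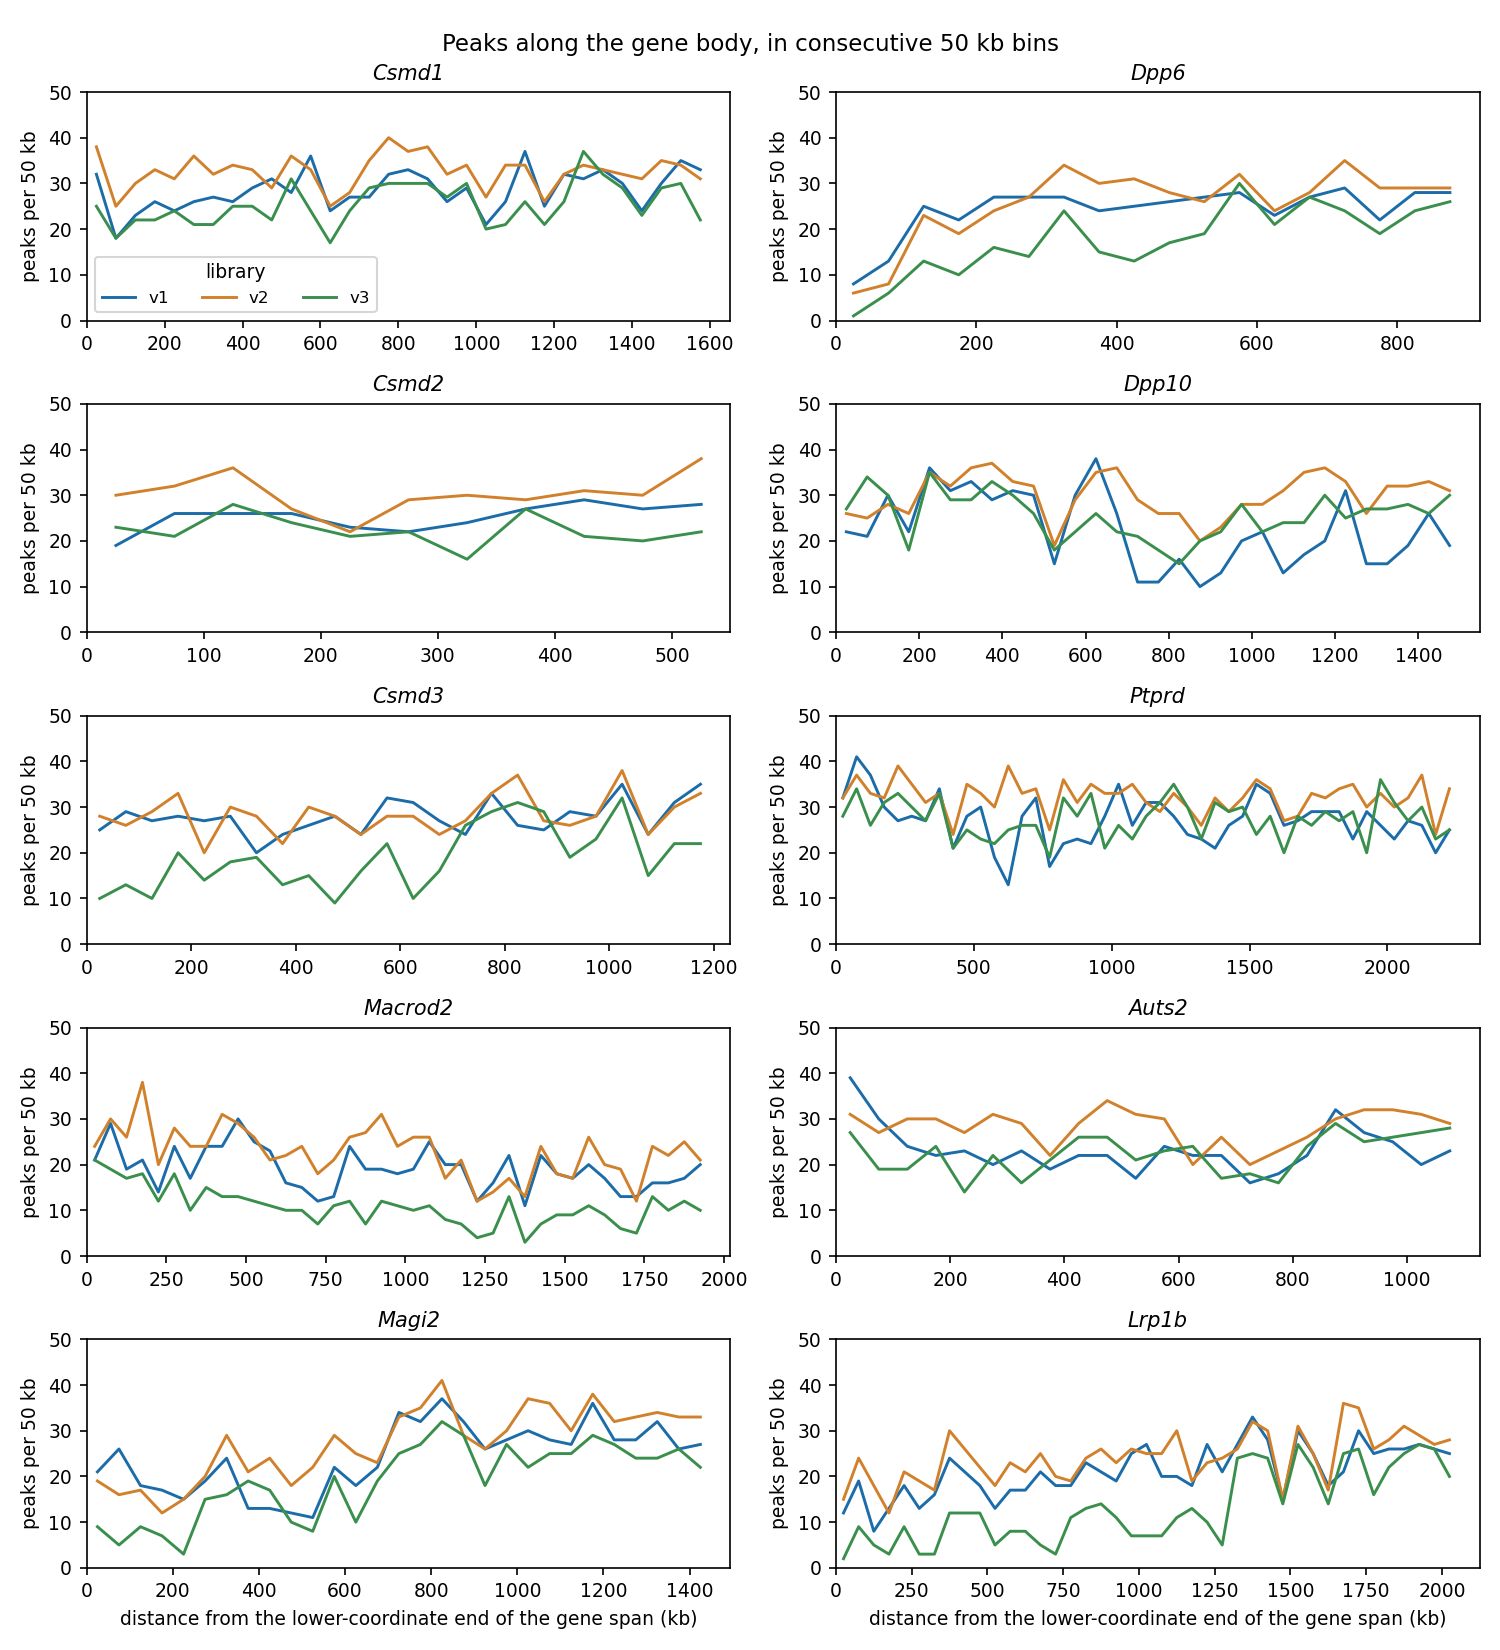
Number of peaks (vertical axis) in consecutive 50 kb bins along each gene, by distance in kb from the lower-coordinate end of the span (horizontal axis), with 1 line per library. In v3 the Lrp1b line stays low over the lower-coordinate part and then nears the other lines. Dpp6 is low in all libraries near its start, and the Csmd1 lines have no long low stretch.

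Taken as shares of all peaks, the 10 genes held less of the v2 list than of the v1 list, and went both ways between v1 and v3. A share ratio is the share of a library's peaks that lie in a window divided by the same share in the other library. For v2 over v1 it ran from 0.749 in Csmd3 to 0.973 in Dpp10, with a median of 0.851, against 0.921 in the other long genes and 0.935 over the 9710 protein-coding genes that held 30 or more peaks in the libraries together. The interval lay below 1 in 8 of the 10 genes and above 1 in none. Among all 225 genes of at least 500 kb that met the minimum, it lay below 1 in 32.9% and above 1 in 10.7%, and among the 9710 genes in 2.78% and 1.67%. The 10 genes hold more peaks than most of these, which by itself makes their intervals narrower. No gene passed a fold of 1.5 in either direction, against 0.444% of the 225 genes lower and 3.56% higher, and 3.26% and 6.87% of the 9710. With a looser limit, 2 genes were lower by over 20% (20.4% of the 9710) and none higher by over 25% (15.7%).

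Between v3 and v1, Dpp10, Ptprd and Auts2 held a higher share in v3, and Macrod2, Lrp1b and Csmd3 a lower one. The share ratio was 1.37 (1.24 to 1.52) for Dpp10, 1.23 (1.14 to 1.33) for Ptprd and 1.17 (1.04 to 1.33) for Auts2. It was 0.689 (0.611 to 0.776) for Macrod2, 0.762 (0.684 to 0.849) for Lrp1b and 0.833 (0.739 to 0.939) for Csmd3. For Csmd1, Csmd2, Magi2 and Dpp6 the interval held 1. Thus 3 of 10 intervals lay below 1 and 3 above, against 26.7% and 17.3% of the 225 long genes and 2.28% and 3.81% of the 9710. The median of the 10 was 1.01, beside 0.978 in the other long genes and 1.07 over the 9710 genes. Again none passed a fold of 1.5, against 16.9% of the long genes lower and 3.56% higher, and 4.94% and 11.3% of the 9710. Lower by over 20% were 2 genes (12.1% of the 9710) and higher by over 25% was 1 (25.7%). The Kv4 partners Dpp6 and Dpp10 thus had separate intervals, 0.898 (0.776 to 1.04) and 1.37 (1.24 to 1.52). This was not particular to that pair, since the Dpp10 interval was also apart from those of Csmd1, Csmd3, Macrod2, Magi2 and Lrp1b.

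Between v3 and v2, which share those libraries with the comparisons above, the median share ratio was 1.18, beside 1.05 in the other long genes and 1.14 over the 9710 genes. The highest were Ptprd with 1.42 (1.31 to 1.53) and Dpp10 with 1.41 (1.28 to 1.55), and the lowest Macrod2 with 0.785 (0.698 to 0.881). Intervals lay above 1 in 6 genes and below 1 in 1, against 32.4% and 24.9% of the long genes and 6.53% and 2.66% of the 9710. None passed a fold of 1.5, against 17.3% of the long genes lower and 0.444% higher, and 6.23% and 11.9% of the 9710. Lower by over 20% was 1 gene (12.7%) and higher by over 25% were 4 (34.6%). As ratios of covered length, the median for v3 over v2 was lower, at 1.12, with Ptprd again highest (1.45) and Macrod2 lowest (0.785).

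**Figure D3:**
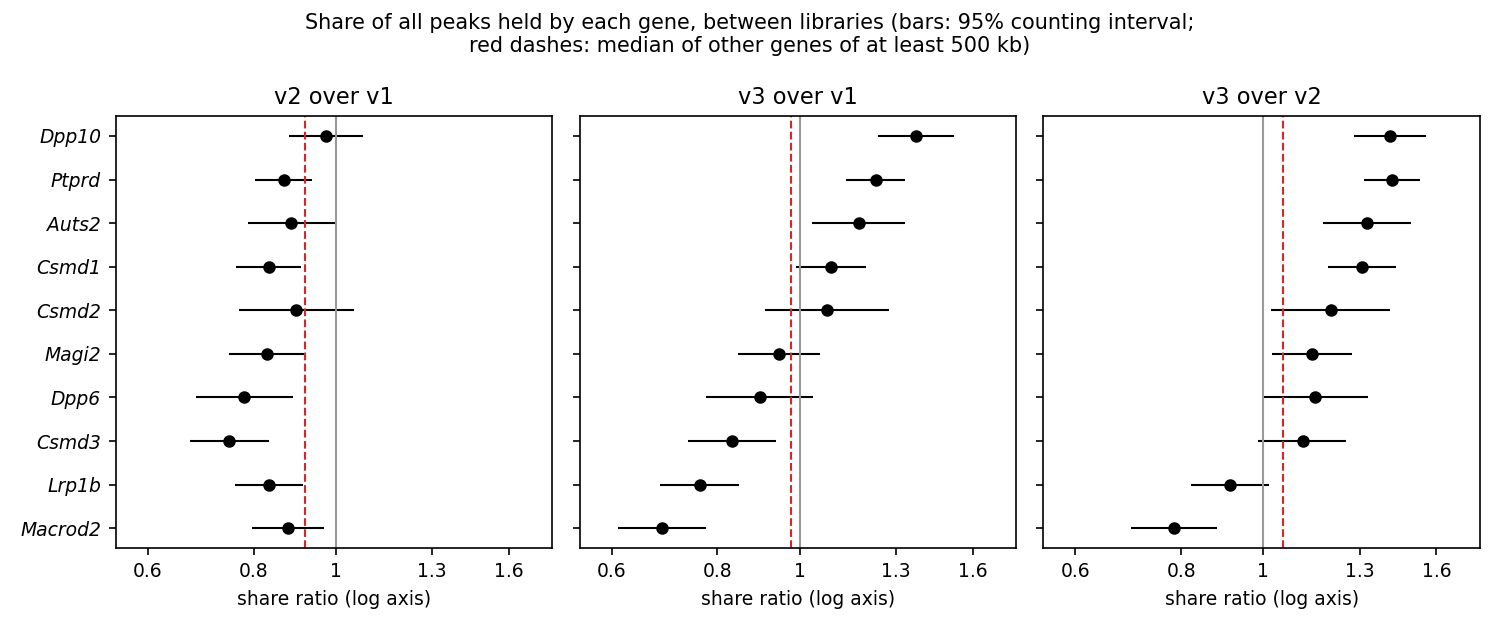
Share ratio of each gene (log axis, points with 95% counting intervals) for v2 over v1, v3 over v1 and v3 over v2, with a grey line at 1 and red dashes at the median of the other genes of at least 500 kb. Dpp10 is highest and Macrod2 lowest for v3 over v1, at 1.37 and 0.689.

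Differences between the libraries were not spread evenly along some of these genes. In Lrp1b the share ratio of v3 over v1 was 0.523 (0.432 to 0.631) in the lower-coordinate 50% of the span and 0.943 (0.824 to 1.08) in the rest. In Csmd3 the same ratios were 0.680 (0.563 to 0.819) and 0.974 (0.829 to 1.14). Dpp6 had 0.693 (0.546 to 0.877) in the part nearer its start and 1.07 (0.883 to 1.29) in the part nearer its end. Dpp10 went the other way, with 1.66 (1.41 to 1.94) in the 50% on the 5′ side of its span and 1.20 (1.04 to 1.38) in the rest. For v2 over v1 the Dpp10 ratios lay on either side of 1, at 1.20 (1.03 to 1.4) and 0.829 (0.724 to 0.949). For v3 over v1 both parts of a gene differed by more than 1.5 times in 2 of the 10 genes, Lrp1b and Dpp6, against 6% of the 200 genes of at least 500 kb with 30 peaks in each part. For v3 over v2 they did so in Lrp1b alone (7.5% of 200), and for v2 over v1 in none of the 10 (3.29% of 213).

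The bodies of Dpp6, Magi2 and Dpp10 were divided at their internal annotated starts, and peaks per kb were compared between the segments. The stretch of Magi2 between the start of the span and the second annotated start, 688 kb, held 0.35, 0.41 and 0.23 peaks per kb. Beyond that start, over 797 kb, it held 0.59, 0.66 and 0.50 per kb, and the intervals on the 2 sides did not overlap in any library. In Dpp6 the first 232 kb, up to the second start, held 0.36 (0.29 to 0.44), 0.30 (0.23 to 0.38) and 0.16 (0.11 to 0.22) per kb. After the third start it held 0.52 (0.46 to 0.59), 0.58 (0.51 to 0.65) and 0.46 (0.40 to 0.52), with no overlap of intervals in any library. The stretch between the second and the third start held 0.53 (0.43 to 0.63), 0.61 (0.51 to 0.73) and 0.34 (0.27 to 0.43). Its intervals overlapped those of the last segment in all 3 libraries, and those of the first segment in v1 alone.

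In Dpp10 the intervals of the segments were apart in v1 alone. Before its internal start the gene held 0.35 (0.31 to 0.39) peaks per kb in v1 and after it 0.56 (0.50 to 0.62). In v2 the values were 0.59 (0.53 to 0.64) and 0.61 (0.56 to 0.67), and in v3 0.48 (0.44 to 0.53) and 0.54 (0.48 to 0.59), so that the intervals overlapped. All 3 genes had more peaks per kb after their last annotated start than before it, in every library. Of the 54 genes of at least 500 kb with an annotated start at 20 to 80% of the span, so did 70.4%, 66.7% and 74.1%, and 3 of 3 is little to set against those shares. In the other 51 of these genes the ratio of the part after to the part before had medians of 1.13, 1.06 and 1.12. It reached 3.02, 3.97 and 2.87. For Magi2 it was 1.68, 1.61 and 2.16, for Dpp6 1.19, 1.29 and 1.85, and for Dpp10 1.59, 1.05 and 1.11. All lie within the range of the other genes, whose segment intervals are not given here.

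**Figure D4:**
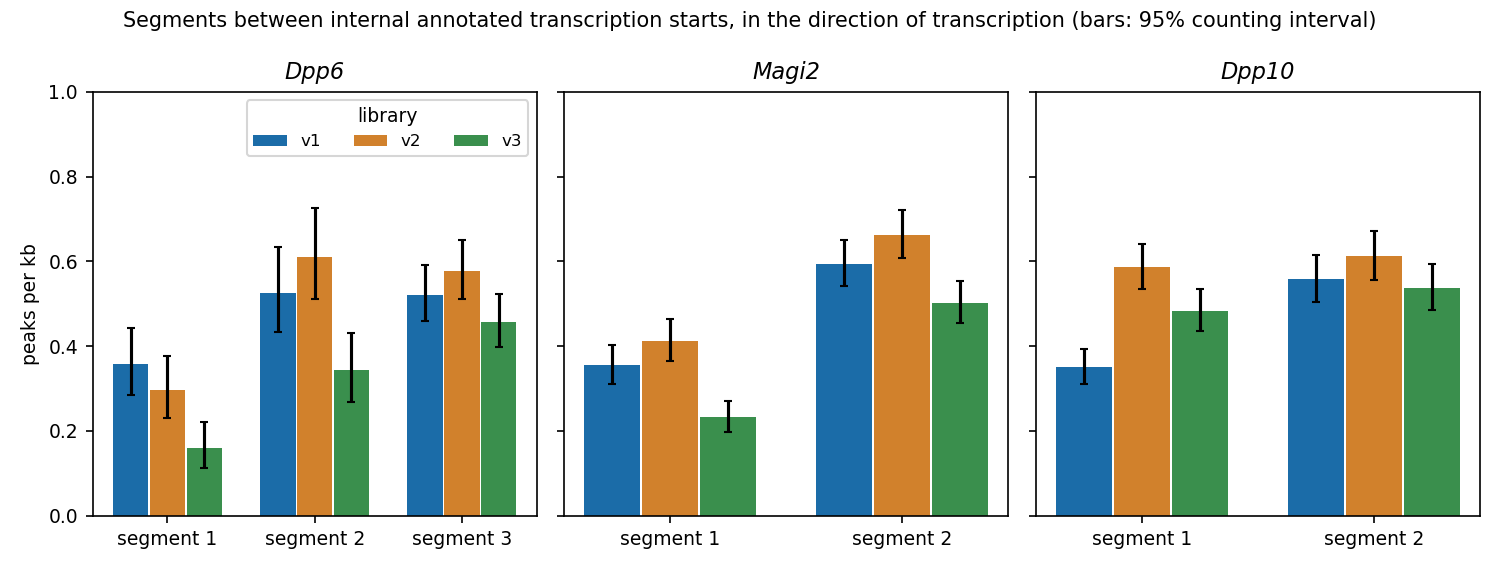
Peaks per kb (bars from 0, with 95% counting intervals) in the segments of Dpp6, Magi2 and Dpp10 between internal annotated starts, numbered in the direction of transcription, for each library. Segment 1 of Magi2 and Dpp6 is lower than the last segment in all 3 libraries, while the segments of Dpp10 differ beyond their intervals in v1.

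The bodies of most of these genes held more peaks per kb than the sequence around them, as did those of most other long genes. In each library 9 of the 10 windows held more peaks per kb than both the 500 kb below and the 500 kb above, against 75.7%, 77% and 66.8% of the 226 genes of at least 500 kb. The median ratios of the window to its flanks were 2.92, 2.29 and 3.37, beside 1.8, 1.53 and 1.62 in the other long genes. Flanks of the 10 genes overlapped a median of 0.5 other protein-coding genes, and those of the other long genes 4.5. The part of this difference in gene content in the ratios was not tested.

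Csmd3, Ptprd and Lrp1b had the fewest peaks around them in v3. The flanks of Ptprd held 0.06 and 0.07 peaks per kb in that library against 0.55 in its window, a ratio of 8.15, and those of Csmd3 held 0.04 on each side against 0.38, a ratio of 9.02. The flanks of Lrp1b held 0.03 and 0.10 against 0.26, a ratio of 3.95. Dpp10 had ratios of 3.66, 2.98 and 5.40. Magi2 exceeded its upper-coordinate flank only slightly, with 0.48 against 0.45 peaks per kb in v1. Macrod2 was the exception: its window held 0.38, 0.45 and 0.21 peaks per kb, its flanks together 0.41, 0.51 and 0.34, and those flanks overlap 5 other protein-coding genes.

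**Figure D5:**
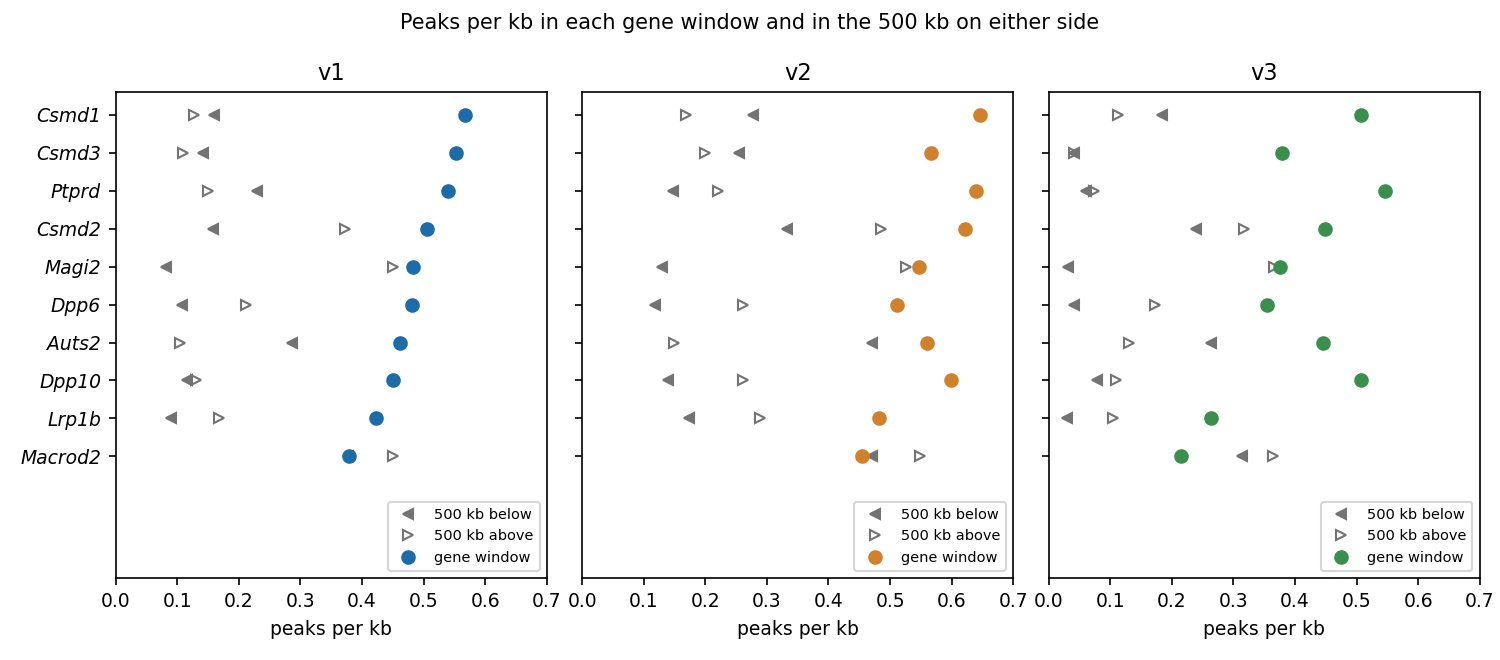
Peaks per kb in each gene window (filled circles) and in the 500 kb below and above it (grey triangles), 1 panel per library. In 9 of 10 genes the circle lies to the right of both triangles, by the widest margin for Ptprd in v3, and Macrod2 is the exception in every panel (in v1 the triangle for the 500 kb below it lies behind the circle).

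About equal numbers of the open regions in these genes were shared by all libraries and not. Peaks of the 3 lists that overlapped by at least 1 bp were merged into regions. Of 7598 regions in the 10 windows, 3798 had a peak in all 3 libraries, which is 49.99% (48.9 to 51.1). The share was 43.2% (42.9 to 43.6) in the other long genes and 39.0% over all regions. Csmd1 and Ptprd had the highest shares, 63.7% (60.4 to 66.8) and 62.4% (59.7 to 65.1). Macrod2 and Lrp1b had the lowest, 34.0% (30.9 to 37.1) and 36.0% (33.0 to 39.0). By mean over the libraries, Csmd1 and Ptprd also had the most peaks per kb of the 10 and Macrod2 and Lrp1b the fewest. Peaks that lie closer together overlap more often by position alone, and the part of this in the shares was not tested.

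Regions of v1 and v2 without a v3 peak were the largest group of the rest in Lrp1b, Macrod2, Csmd3, Dpp6, Magi2 and Csmd1. They made up 31.4%, 26.6%, 25.8%, 19.2%, 18.6% and 10.6% of the regions of these genes, in that order, against 17.8% in the other long genes. In Dpp10 and Ptprd those made up 8.73% and 7.70%, and regions of v2 and v3 without a v1 peak made up 14.9% and 11.4%, against 6.69%. Regions shared by all libraries had a median width of 1334 bp and those of 1 library 500 bp, in part because a merged region spans all its peaks.

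Other very long genes, on a list of 20, were mostly sparser than the 10. Their medians were 0.34, 0.48 and 0.31 peaks per kb, and 11, 7 and 8 of them lay below Macrod2, the lowest of the 10. Rbfox1, a neuronal splicing factor gene, had the highest mean over the libraries, with 0.58, 0.65 and 0.46 peaks per kb. Dmd, the dystrophin gene on the X chromosome, had the lowest, with 0.14, 0.26 and 0.11. Between v3 and v1, 4 of the 20 were lower by more than 1.5 times, and 1 was higher. Past that fold 16.9% of the 225 long genes were lower and 3.56% higher, so these counts are near the shares of long genes. Of the 9710 genes 4.94% were lower and 11.3% higher.

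The shorter paralogues of the 10 had somewhat lower medians of peaks per kb. They were 0.43, 0.54 and 0.40 over 11 paralogues, against 0.48, 0.56 and 0.41 over the 10 genes. Above the median of the 10 genes were 4, 3 and 3 of the 11. The phosphatase genes Ptprs and Ptprf had 0.43, 0.54 and 0.38, and 0.49, 0.59 and 0.40. The scaffold genes Magi1 and Magi3 had 0.42, 0.56 and 0.40, and 0.31, 0.53 and 0.53. Macrod1 had 0.50, 0.57 and 0.38, all above Macrod2. The dipeptidyl peptidase genes Dpp4, Dpp8 and Dpp9 had 0.43, 0.54 and 0.37, then 0.39, 0.56 and 0.50, then 0.52, 0.54 and 0.36. Fbrsl1, the relative of Auts2, had 0.43, 0.43 and 0.40. Of the LDL receptor relatives of Lrp1b, Lrp1 had 0.52, 0.53 and 0.47 and Lrp2 had 0.17, 0.26 and 0.09. Flanks of 5 kb make up more of a short gene's window, so peaks at gene ends weigh more in these values.

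Genes most like the 10 were picked by the Euclidean distance of their log2 peaks per kb in the 3 libraries from the medians of these values over the 10, among the other genes of at least 500 kb. The nearest were Mast4, a kinase gene (0.46, 0.57 and 0.40 peaks per kb, distance 0.077), Dlg2, which encodes the postsynaptic scaffold PSD-93 (0.46, 0.55 and 0.43, distance 0.079), and Ctnna2, the neuronal alpha-catenin gene (0.47, 0.60 and 0.41, distance 0.089). The highest of these genes by mean were Syt1, the calcium sensor of synaptic vesicles, with 0.62, 0.69 and 0.60, and Celf2, an RNA-binding protein gene, with 0.62, 0.69 and 0.57. The lowest were Dach2, with 0.03, 0.07 and 0.01, and Skint5, a gene of the epidermal Skint family, with 5, 1 and 0 peaks.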

How the data were processed

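The authors deposited 1 peak list per library, as chromosome, start and end, with no other value. ArchR, MACS2 and the build mm10 are named per the submitters' processing notes. Not given in the sources used here were the aligner, tool versions and calling threshold. Peaks were at least 500 bp wide and did not overlap within a list. Gene spans came from RefSeq (GRCm38.p6), and starts and strands from its promoter table, which has 4 of the 10 genes. Coordinates are 1-based. Peaks with at least 1 bp in the span plus 5 kb were counted with Python 3.11.15, numpy 2.4.6, pandas 2.3.3 and scipy 1.17.1, and drawn with matplotlib 3.10.9. Position along the gene, flanks and segments used peak midpoints. Intervals are exact (Poisson for densities, Clopper-Pearson for shares, conditional binomial for share ratios) at 95%. Counting was checked against a direct count for a sample of genes in the v1 list. Share ratios were checked on a simulated list, made by removing peaks of some genes from the v1 list. Where the strand was at hand, position was counted from the 5′ end of the span, and otherwise from the lower coordinate. All 10 genes were named, and of other genes all paralogues, the highest and lowest of the list of other very long genes, the 3 nearest, the 2 highest and the 2 lowest of the long genes, and protein-coding genes inside the spans. The genes and lists were chosen with earlier results of these data known. The comparisons of gene parts, flanks and segments were added after the positions had been seen.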

Additional observations from a re-analysis of the deposited data

How the results depend on the processing

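Of 88 recomputed values 63 stayed within their counting interval or, for counts, within 1.5 times, and 25 did not. With peaks wider than 500 bp alone, the median peaks per kb of the 10 genes (order v1, v2, v3) were 0.22, 0.30 and 0.24, the covered shares 23.1%, 33.5% and 31.7%, and the longest stretch without a peak 61.7, 48.5 and 71.4 kb. These stretches lay in Lrp1b, Macrod2 and Lrp1b, and those from all peaks in Macrod2, Dpp6 and Dpp6. The median share ratios were then 0.933 (v3 over v1) and 1.13 (v3 over v2), and 38.6% of regions were found in all 3 libraries. With covered length the median ratio of v3 over v2 was 1.12. Asking that each library cover 50% or more of a region left 38.3% of regions shared. The first 100 kb held 6.82%, 6.17% and 5.79% of the peaks, where the first 10% of the span held 9.65%, 9.28% and 8.54%. A fixed 100 kb is less than 10% of the span in all of these genes but Csmd2 and Dpp6. In the 6 genes without a known strand, position was counted from the lower coordinate, so these shares do not describe the start of transcription in all genes. With limits of 20% lower and 25% higher in place of a fold of 1.5, 2 genes were lower and 0 higher for v2 over v1, 2 lower and 1 higher for v3 over v1, and 1 lower and 4 higher for v3 over v2. With comparison genes of at least 250 kb, their medians were 0.44, 0.55 and 0.35 peaks per kb, nearer to the 0.48, 0.56 and 0.41 of the 10 genes. Fewer peaks entered with the width limit; the cause of the other shifts was not tested. No paired analysis was possible because each version has 1 library. Depth is unknown, so a stretch without a peak is not shown to be closed chromatin.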

Other observations

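Other genes lie inside the spans. Macrod2 holds Flrt3, which encodes a cell adhesion protein that binds latrophilins, at chromosome 2, 140658198 to 140671476. Around Flrt3 lay 16, 16 and 13 peaks (order v1, v2, v3), or 0.69, 0.69 and 0.56 per kb, above the 0.38, 0.45 and 0.21 of Macrod2 as a whole, and peaks there cannot be assigned to one or the other gene. Csmd1 holds the gene C030002A05Rik with 93, 96 and 75 peaks, or 0.63, 0.65 and 0.50 per kb. In and around Speer4b, inside Dpp6, lay 10, 12 and 10 peaks, and in and around Hmgb4, inside Csmd2, 3, 5 and 4. Counts for all these inner genes take in 5 kb on each side. Most of the sequence counted for Speer4b and Hmgb4 therefore lies outside them. The other 6 genes hold no protein-coding gene in the annotation used, and between 1 and 9 genes of any kind lie inside each of the 10.

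Peaks per kb went up with gene length to a point. Medians were 0.20, 0.30 and 0.18 for protein-coding genes under 10 kb, and 0.45, 0.55 and 0.37 for those of 250 to 500 kb. They were 0.41, 0.49 and 0.28 for the 59 genes of at least 1000 kb, which include all of the 10 but Csmd2 and Dpp6.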
